A study of Mus musculus with 32 samples.

Results

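Complexes II to V of the inner mitochondrial membrane carry out the later steps of oxidative phosphorylation. Succinate dehydrogenase (complex II) feeds electrons from the citric acid cycle into ubiquinone, cytochrome bc1 (complex III) passes them to cytochrome c, cytochrome c oxidase (complex IV) hands them to oxygen, and ATP synthase (complex V) lets protons flow back to make ATP. In brown fat, uncoupling protein 1 lets protons return without ATP synthesis, and the tissue is known for much respiratory chain and comparatively little ATP synthase. Nuclear genes encode all subunits of complex II and most subunits of the other 3 complexes. The genes described here were the rows of the count table with a symbol starting with Uqcr, Cox4 to Cox8 or Atp5, or equal to Sdha, Sdhb, Sdhc, Sdhd, Cyc1 or Cycs, and with at least 320 counts over 32 libraries. Of 56 such symbols, 6 names ending in -ps and 2 genes under the minimum, Cox7b2 with 1 count and Cox8c with 0, were left out. The remaining 48 of 50686 genes comprised 4 genes of complex II, 10 of complex III with cytochrome c, 17 of complex IV and 17 of complex V. All 48 were also among the 15505 genes that passed the filter on low counts.

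The libraries came from interscapular brown adipose tissue of untreated, non-fasted male C57BL/6J mice of 10 weeks that ate chow and lived in a light:dark cycle under mild cold. Groups of 4 separate mice were killed at each of 8 Zeitgeber times (ZT), 3 h apart, where ZT0 is the onset of light and ZT12 the onset of dark. By the labels the groups differed in the time of day, and no group was treated or carried a modified gene. Each time point was sequenced on 1 flow-cell lane according to the labels, with ZT0, ZT3 and ZT6 on lane 2, ZT9, ZT12 and ZT15 on lane 3, and ZT18 and ZT21 on lane 4. A difference between time points of different lanes therefore cannot be told apart from a difference between lanes. The libraries held 16300770 to 18254659 counts each. Brown adipocyte markers were present in each library, whose sum over 8 genes ran from 3017 to 6631 CPM. CPM are counts scaled to 1000000 per library after TMM, the trimmed mean of M values. The sum of 13 skeletal muscle markers ran from 56.7 to 8144 CPM, and 3 libraries, mouse 2 at ZT3, mouse 2 at ZT12 and mouse 1 at ZT15, were over 10 times the median of 617.7 CPM.

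The 48 genes took 2.62% to 3.17% of all counts in a library. Their summed level was 29290 CPM in the median library, of which complex V genes gave 40.8%, complex IV genes 24.9%, complex III with cytochrome c 19.7% and complex II 14.6%. Scaled to the length of a coding transcript, Atp5b, the catalytic beta subunit of ATP synthase, stood highest of all at 2725 CPM per kilobase. Cox8b, the small subunit 8 isoform of muscle and brown fat, led complex IV with a length-scaled level of 1967 CPM per kilobase. Uqcrh, the hinge protein of complex III, had 946.9 CPM per kilobase, and Sdha, the flavoprotein of complex II, had 885.7 CPM per kilobase.

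Of the contrasts between times that were tested, the one with the highest number of called genes among the 48 lay inside lane 2, between the onset of light and 3 h later. This ranking is that of the fit of all 32 libraries after TMM and did not hold in every alternative fit given below. The summed level lay within 29419 to 32843 CPM in the 4 ZT0 mice and within 26452 to 28137 CPM in the 4 ZT3 mice, so that the groups did not overlap. The mean sum was 13.9% lower at ZT3. The mean of complex III with cytochrome c was 16.5% lower, from 6311 ± 318 CPM to 5268 ± 161 CPM (SD, n = 4 mice each). The mean of complex IV was 15.7% lower, from 7950 ± 790 CPM to 6701 ± 105 CPM. Complex V was 12.2% lower, from 12684 ± 513 CPM to 11139 ± 345 CPM, again without overlap of the mice in any of these 3 complexes. Complex II was 11.9% lower on average, from 4502 ± 348 CPM to 3965 ± 222 CPM, and here the mice overlapped.

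**Figure D1:**
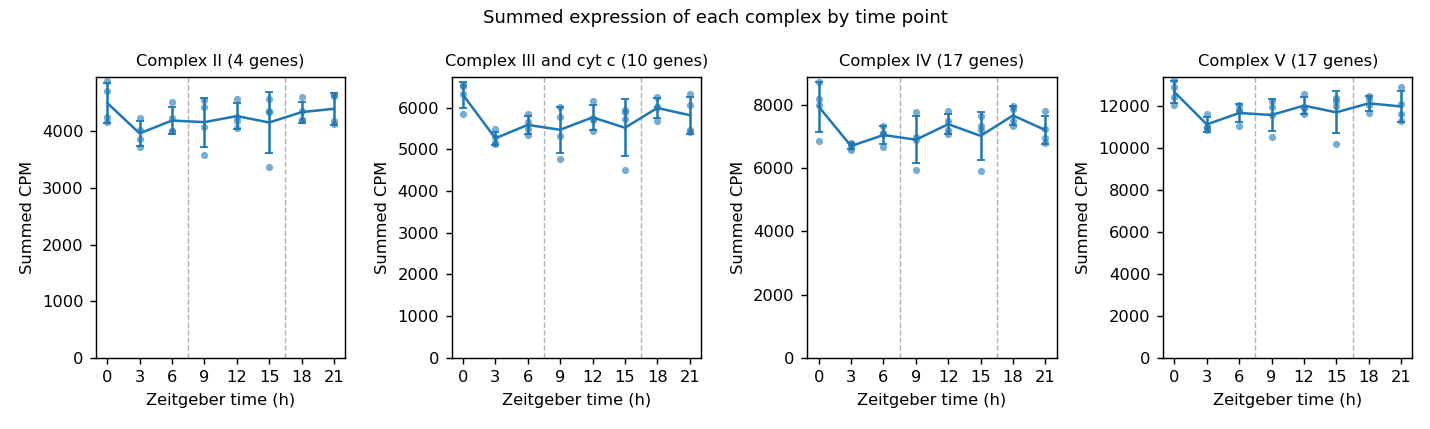
Summed CPM of the genes of each complex against Zeitgeber time, with 1 point per mouse and lines through the means ± SD (n = 4 mice). Dashed lines part the sequencing lanes, and in complexes III, IV and V every ZT3 mouse lies below every ZT0 mouse.

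The step from ZT0 to ZT3 was tested gene by gene in edgeR's quasi-likelihood fit of all 32 libraries, with Benjamini-Hochberg (BH) adjustment over all 15505 genes and a threshold of 0.05. This step was chosen for testing after the values had been seen. Of the 48 genes, 19 fell and none rose, whereas 6.6% of all tested genes fell and 7.16% rose. The log2 fold change was below 0 for 43 of 48 genes, with a median of -0.23 against a median of 0.01 over all tested genes. In 22 of 48 genes every ZT3 mouse lay below every ZT0 mouse, which held for 7.58% of all tested genes, and in none did every ZT3 mouse lie above, at 8.38% of all tested genes. Of the 5 genes with a log2 fold change above 0, 1 had an unadjusted p under 0.05, and DESeq2 likewise called none of them higher. Called genes were found in all 4 complexes, with 1 of 4 genes called in complex II, 4 of 10 in complex III with cytochrome c, 7 of 17 in complex IV and 7 of 17 in complex V.

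Within complex III, Uqcrb, a small subunit at the matrix side of the complex, had 312.6, 337.7, 385.2 and 413.9 CPM in the ZT0 mice and 244.3, 261.1, 267.1 and 298.2 CPM in the ZT3 mice. The 2 groups did not overlap, and the log2 fold change was -0.44 ± 0.10 (SE, adjusted p = 0.00443 in edgeR). Uqcrq, the ubiquinone-binding small subunit, was between 402 and 519.1 CPM at ZT0 and between 348.6 and 377.3 CPM at ZT3, a log2 fold change of -0.41 ± 0.12 (edgeR adjusted p = 0.0227). Cycs, somatic cytochrome c that carries electrons from complex III to complex IV, fell by 0.39 ± 0.12 on the log2 scale (edgeR adjusted p = 0.0319), and by 0.28 with the counts of its near-identical copies added, which did not pass (edgeR adjusted p = 0.0997). The core protein Uqcrc2 also fell, with a log2 fold change of -0.28 ± 0.09, although 19.7% of its exonic bases overlap Pdzd9 on the other strand.

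In complex IV the called genes were Cox5a and Cox5b, which face the matrix, with 12.8% of the exonic bases of Cox5a overlapping Gm26631 on the other strand, and the small membrane-anchored Cox6c, Cox7a1, Cox7b and Cox7c, together with Cox6c2. Cox6c2 is annotated as a processed pseudogene and entered by its name, and 34.8% of its 100-base stretches are also in Cox6c, so that these 2 of the 19 called genes share sequence. Cox7a1, the subunit 7a isoform of heart, muscle and brown fat, was at 290, 316.7, 327.8 and 346.8 CPM in the ZT0 mice and at 217.4, 251, 260.7 and 265.7 CPM in the ZT3 mice. Its mice did not overlap, and it fell by 0.37 ± 0.10 on the log2 scale (edgeR adjusted p = 0.0203). Its liver-type partner Cox7a2 had a log2 fold change of -0.22 ± 0.09, which did not pass (edgeR adjusted p = 0.0935). The catalytic subunits of complex IV are mitochondrially encoded and are described further on.

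In complex V the called genes covered the catalytic head, the stalks and the membrane part. Atp5b fell by 0.19 ± 0.06 on the log2 scale (edgeR adjusted p = 0.0351). Atp5e, the epsilon subunit of the central stalk, had 206.2, 235.9, 247.6 and 297.2 CPM at ZT0 against 180, 185.1, 187.2 and 210.8 CPM at ZT3, where 1 ZT3 mouse overlapped the ZT0 range. Atp5mpl, a small membrane protein of the synthase, had the most negative log2 fold change of complex V, -0.43 ± 0.14 (edgeR adjusted p = 0.0387). Atp5h and Atp5o, subunits of the peripheral stalk, fell by 0.22 ± 0.06 and by 0.19 ± 0.06 on the log2 scale. For Atp5o, 35.6% of the exonic bases overlap genes on the other strand and 12.3% overlap a gene on the same strand. The membrane subunits Atp5j2 and Atp5k fell by 0.30 ± 0.09 and by 0.34 ± 0.09. In complex II only Sdhc, one of the membrane anchors, passed, with a log2 fold change of -0.18 ± 0.06 (edgeR adjusted p = 0.0362). The other Sdh genes had values of -0.20 ± 0.10 for Sdha, -0.18 ± 0.07 for the iron-sulphur subunit Sdhb and -0.12 ± 0.09 for the anchor Sdhd.

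**Figure D2:**
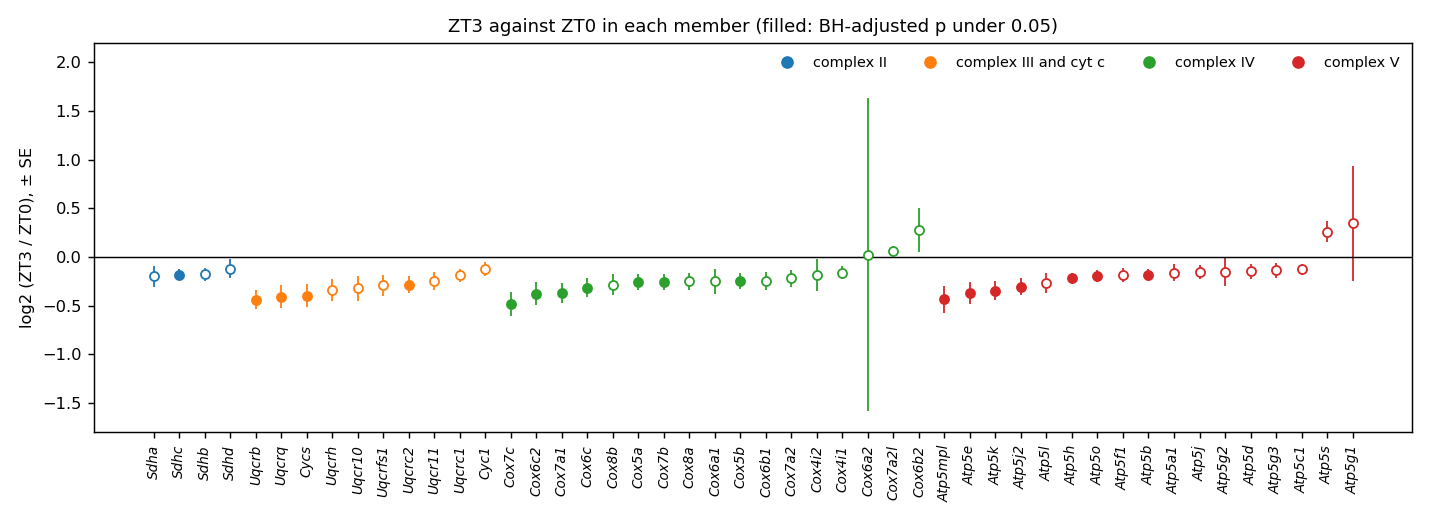
Log2 fold change of ZT3 against ZT0 for each of the 48 genes, grouped by complex, with SE bars from the edgeR fit and filled points for a BH-adjusted p under 0.05. Most points lie between -0.5 and 0, with all filled points below 0 and the wide bars of Cox6a2 and Atp5g1 around 0.

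Several other measures moved with this step, and their part in it was not tested. The 5 erythroid markers all had lower values at ZT3, with sums of 471 to 854.8 CPM at ZT0 and 265.1 to 546.7 CPM at ZT3, although none passed. The 4 macrophage markers summed to 16 to 29.6 CPM at ZT0 and to 27.2 to 45.3 CPM at ZT3, and 1 of them, Csf1r, rose. The 8 brown adipocyte markers summed to 4326 to 5313 CPM at ZT0 and to 3928 to 4660 CPM at ZT3, with none called. No white adipocyte or endothelial marker was called either, at sums of 91.98 to 225.2 CPM against 81.05 to 154 CPM for the 4 white adipocyte genes and of 750.4 to 948.5 CPM against 823.9 to 910.7 CPM for the 4 endothelial genes. Skeletal muscle markers varied widely within both groups, from 59.5 to 5912 CPM at ZT0 and from 63.39 to 8144 CPM at ZT3. No marker list as a whole was at 0 in any library, but 5 muscle markers, Actn3, Myh1, Myh2, Tnnc2 and Tnni2, were at 0 in at least 1. In samples of whole tissue, fewer cells of a type and less RNA per cell cannot be told apart. The share of counts from mitochondrially encoded genes was 21.5% to 25.3% at ZT0 and 23.4% to 25.3% at ZT3. Short transcripts also shifted, since the median log2 fold change was -0.14 over the 995 tested genes with a coding transcript under 1000 bases and 14.3% of them fell. Of the 48 genes, 31 were that short, with a median of -0.25 and 14 called. The other 17 had a median of -0.19 and 5 called, beside the 6.6% of all tested genes of any length that fell. A share for the longer genes alone was not taken.

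The number of called genes depended on single mice. Leaving out mouse 1, 2 or 3 of ZT0 left 4, 5 and 8 genes of the 48, all lower, while 8.18%, 8.11% and 7.49% of all tested genes were called in either direction. Leaving out mouse 3 or 4 of ZT3 left 3 and 6, all lower, beside 8.32% and 9.33% of all tested genes. Without mouse 4 of ZT0 the number was 31, beside 21.2% of all tested genes, of which 30 were lower and 1, Atp5s, was higher. In each of these fits 43 or 44 of 48 log2 fold changes were below 0. Scaling by library size alone, in place of TMM, left 5 called genes, all lower, beside 12.2% of all tested genes, with a median log2 fold change of -0.17 over the 48 and of 0.07 over all tested genes. A fit of lane 2 alone left 10, all lower, beside 9.45% of all tested genes.

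After ZT3 the levels did not go on falling. Between ZT3 and ZT6 none of the 48 genes passed the edgeR test, at 2.08% of all tested genes, none had an unadjusted p under 0.05 either, and 40 had a log2 fold change above 0. At ZT6 against ZT0, 7 of 48 genes fell and none rose, at 8.58% of all tested genes falling. These were Cycs, Uqcrb, Atp5e, Atp5h, Atp5j2, Atp5k and Atp5l. Over the whole of lane 2, 14 of 48 genes differed between ZT0, ZT3 and ZT6, at 19.7% of all tested genes. Among the 3 time points of lane 3 none of the 48 differed by the edgeR test, at 5.94% of all tested genes, and none had an unadjusted p under 0.05. Between the 2 time points of lane 4 none of the 48 differed, at 2.06%, and 4 had an unadjusted p under 0.05. DESeq2 called none in either lane.

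Over the full day, most of the 48 genes varied little and had fitted peaks in the dark phase. The amplitude is the half-height of a 24 h cosine fitted to log2 CPM by least squares. Peaks and SE come from that fit, and the calls and p of a 24 h component from edgeR's fit of the counts. The median amplitude was 0.08 over the 48 genes, a 1.11-fold difference between fitted peak and trough, against a median of 0.14 or 1.21-fold over all tested genes. The amplitude was below that all-gene median in 40 of 48 genes. Fitted peaks lay between ZT17 and ZT23 for 36 of 48 genes and for 28.0% of all tested genes. Most of the 48 genes did not pass for a 24 h component, and the SE of a fitted peak reached 5.6 h, in Sdhd. A 24 h component passed in 9 of 48 genes, at 36.1% of all tested genes, so that a smaller share passed than among genes in general. By JTK cycle, a rank test against cosine templates, 13 of 48 oscillated, at 36.9% of all tested genes. The P of this test was corrected for the templates tried per gene but not over genes. After BH adjustment over genes 7 of 48 passed, at 27.5%. Any difference between the 8 time points was found in 11 of 48, at 39.8%.

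**Figure D3:**
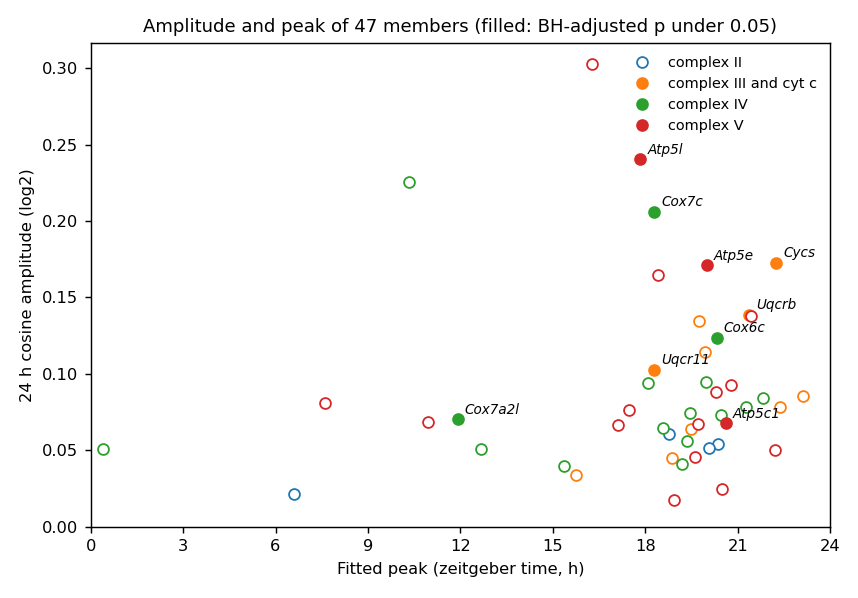
Fitted 24 h cosine amplitude (log2) against fitted peak time for 47 of the 48 genes, coloured by complex, with filled and named points for a BH-adjusted p under 0.05 in edgeR. Cox6a2, at an amplitude of 1.31 ± 0.75 (SE), lies beyond the scale and is left out, and of the filled points only Cox7a2l peaks outside the hours from ZT17 to ZT23.

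None of the 4 complex II genes was among the 9, which were Cycs, Uqcrb and Uqcr11 of complex III, Cox6c, Cox7c and Cox7a2l of complex IV, and Atp5c1, Atp5e and Atp5l of complex V. Uqcrb had an amplitude of 0.14 ± 0.04 with a peak at ZT21.4 ± 1.1 h (SE, edgeR adjusted p = 0.0183). Cycs had an amplitude of 0.17 ± 0.05 and a peak at ZT22.3 (edgeR adjusted p = 0.0132). Its mice had 41.2 to 51.9 CPM at ZT0 and 31.4 to 35 CPM at ZT15, the times with its highest and lowest mean. These times were on different lanes, and this pair was not tested. Uqcr11, another small subunit of complex III, peaked at ZT18.3 with an amplitude of 0.10 ± 0.03. Atp5e had the mice of ZT18 at 235.2, 244.9, 257.5 and 259.8 CPM and those of ZT6 at 169.1, 193.2, 202.2 and 204.8 CPM, without overlap. Its amplitude was 0.17 ± 0.04 with a peak at ZT20 (edgeR adjusted p = 0.00702). Atp5c1, the gamma subunit that turns inside the catalytic head, had an amplitude of 0.07 ± 0.02, a peak at ZT20.6 and 494.6 to 652.7 CPM across all mice (edgeR adjusted p = 0.0388). The calls of Atp5c1 and Uqcr11 were lost in 12 and 15 of 32 leave-one-out fits, at adjusted p of up to 0.0836 and 0.0833 in edgeR, whereas Uqcrb, Cycs, Cox6c, Cox7c, Atp5e and Atp5l passed in all 32.

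Cox7a2l had the earliest fitted peak of the 9. Its product, also called SCAF1, is known as a factor in supercomplexes of complexes III and IV, which were not measured in these mice. It peaked at ZT11.9 ± 1.1 h with an amplitude of 0.07 ± 0.02 (edgeR adjusted p = 0.0351), while the other 8 peaked between ZT17.8 and ZT22.3. Its call was lost in 10 of 32 leave-one-out fits (edgeR adjusted p up to 0.0693). The ZT12 mice were at 152.7, 155.9, 160.7 and 160.9 CPM and the ZT0 mice at 131.9, 134.7, 145.4 and 149.2 CPM, so that every ZT12 mouse lay above every ZT0 mouse. Among all tested genes 8.19% had that pattern, and it was the only one of the 48 with it. The contrast of ZT12 with ZT0 itself missed the threshold, at a log2 fold change of 0.17 ± 0.06 (edgeR adjusted p = 0.0597).

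With the lane as an additive term beside the cosine, a 24 h component passed in 2 of 48 genes, Atp5l and Atp5h, at 17.2% of all tested genes, and Atp5h was not among the 9. Since lanes hold neighbouring hours, this fit uses differences inside the lanes only. Of the 9 genes above, Atp5l alone was also called by it. Atp5l and Atp5h both have copies elsewhere in the genome, and only their own rows were fitted with lane. The copy of Atp5h, Gm10250, held 105844 counts against 96339 on Atp5h. With it added and no lane term, Atp5h had an amplitude of 0.05 ± 0.02 (edgeR adjusted p = 0.155). On its own row without lane it had 0.07 ± 0.02 (edgeR adjusted p = 0.0777). With lane, the fitted amplitudes of Atp5e, Cox7c and Cycs were 0.177, 0.234 and 0.175 (edgeR adjusted p = 0.147, 0.123 and 0.235). Without lane they were 0.171, 0.206 and 0.173. Cox6c, Uqcrb and Cox7a2l had edgeR adjusted p of 0.281, 0.28 and 0.474 with lane. Atp5c1 and Uqcr11 had 0.26 and 0.274, and the amplitudes of these other genes with lane are not given here. The part of the lane in the lost calls was not tested. Leaving out mouse 1 of ZT15, which had the lowest summed level of all libraries, 24006 CPM, raised the number with a 24 h component from 9 to 15 and the share of all tested genes from 36.1% to 38.6%.

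Atp5l and Cox7c had the largest amplitudes among the 9, and both are genes with near-identical copies elsewhere in the genome. Atp5l encodes subunit g of the synthase's membrane part and Cox7c a small subunit of complex IV. The whole coding sequence of Atp5l, 309 bases, occurs letter for letter in Gm10221, a processed pseudogene on chromosome 5. The same was true for the 189 coding bases of Cox7c in Gm12338, a processed pseudogene on chromosome 11, and for the 315 coding bases of Cycs in Gm10053, a protein-coding annotation on chromosome 19. The first 100 coding bases, identical in gene and copy, are shown because a read inside them cannot be assigned to either. They lie in the copies at chr5:24581763-24581862 (minus strand), chr11:75599855-75599954 (minus strand) and chr19:24875753-24875852 (plus strand) of GRCm38.
Atp5l and Gm10221: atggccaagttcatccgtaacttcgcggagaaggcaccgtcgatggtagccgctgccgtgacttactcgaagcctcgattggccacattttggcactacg
Cox7c and Gm12338: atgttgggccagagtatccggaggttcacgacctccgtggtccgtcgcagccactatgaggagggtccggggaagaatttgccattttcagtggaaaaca
Cycs and Gm10053: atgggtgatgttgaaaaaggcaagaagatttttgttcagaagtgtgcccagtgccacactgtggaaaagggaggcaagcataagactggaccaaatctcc

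The copies took most of the counts. Gm10221 held 129103 counts over the 32 libraries against 18085 on Atp5l, Gm12338 held 86921 against 14719 on Cox7c, and Gm10053 held 54817 against 20817 on Cycs. On its own row, Atp5l had 35.5, 40.7, 43.1 and 46.1 CPM in the ZT18 mice and 24.5, 25, 26.1 and 31 CPM in the ZT6 mice, a log2 fold change of 0.63 ± 0.10 (edgeR adjusted p = 0.000105). Its amplitude was 0.24 ± 0.04 with a peak at ZT17.8 (edgeR adjusted p = 4.6e-05). With the counts of its copies added, an alternative chosen after seeing the data, the ZT18 mean was 279.3 ± 14.2 CPM, the ZT6 mean 268.3 ± 11 CPM and the amplitude 0.05 ± 0.03 (edgeR adjusted p = 0.475). Cox7c went from an amplitude of 0.21 ± 0.05 (edgeR adjusted p = 0.00385) on its own row to 0.05 ± 0.04 with its copies (edgeR adjusted p = 0.477). Cycs kept its 24 h call, with amplitudes of 0.17 ± 0.05 alone and 0.16 ± 0.04 with the copies (edgeR adjusted p = 0.0112), but with them it no longer passed over the 8 times (edgeR adjusted p = 0.0678) or within lane 2 (edgeR adjusted p = 0.127). Uqcrb and Cox7a2l, which also have copies, likewise passed both ways.

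**Figure D4:**
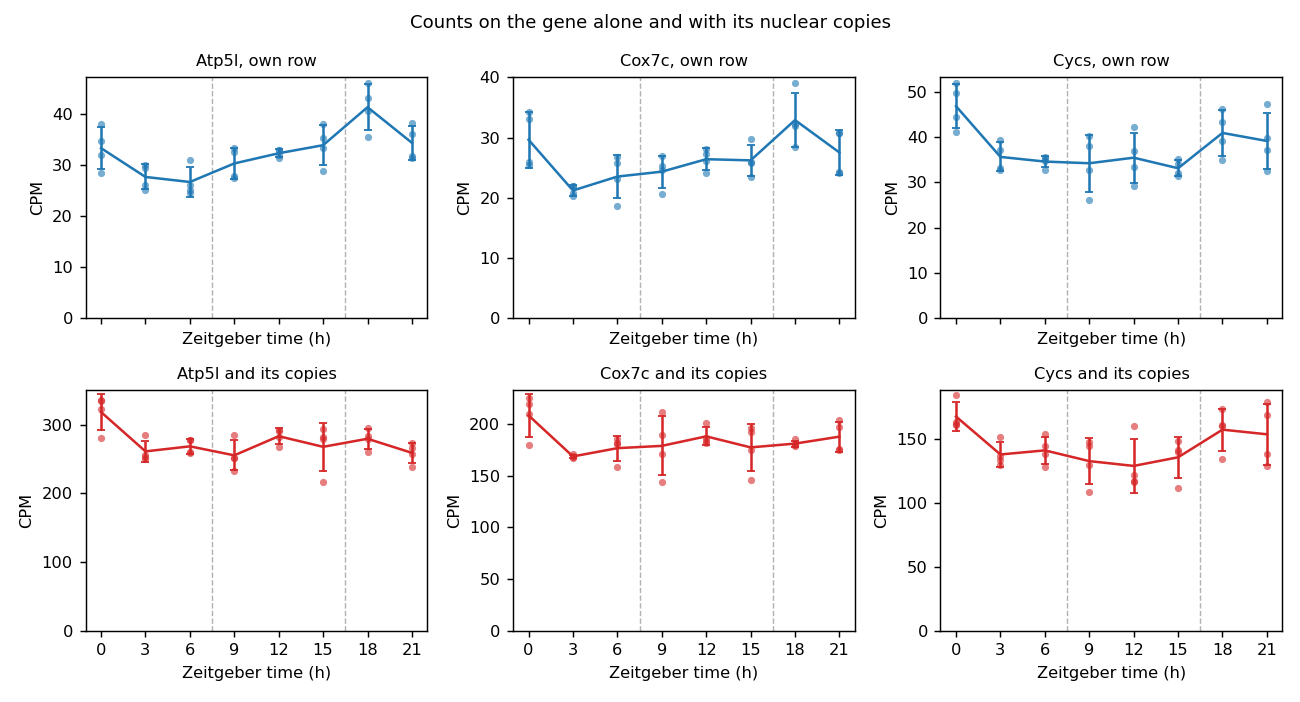
CPM of Atp5l, Cox7c and Cycs on their own rows (top) and with the counts of their copies added (bottom), with 1 point per mouse, means ± SD (n = 4 mice) and dashed lines between lanes. The ZT18 maximum of Atp5l and Cox7c on their own rows is not seen in the sums, whose highest means are at ZT0.

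In all, 11 of the 48 genes shared at least 10 exact stretches of 100 bases with 21 copies that are not among the 48. Both Atp5g1 and Atp5g2, which encode the same c-ring subunit as Atp5g3, had copies. All 100-base stretches of the Atp5g2 messenger occur elsewhere. Atp5g1 and Atp5g2 were listed at 3.77 and 5.15 CPM on average, and at 8.08 and 7.86 CPM with the counts of their copies added. Atp5g3, with no shared stretch, was at 187.1 CPM, so that both stayed far below it either way. The level of a gene with copies is a level of the reads that were assigned to it. The drop from ZT0 to ZT3 was also present with the copies added, with 19 of 48 genes called beside 13.7% of all tested genes in either direction. Of the genes with copies, Cox7c, Cox5b, Atp5h, Atp5o and Uqcrb passed both ways, Atp5l passed with its copies at a log2 fold change of -0.29 (edgeR adjusted p = 0.0181), and Cycs, at -0.28, did not (edgeR adjusted p = 0.0997).

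The onset of dark was set against the onset of light because the study examined these hours in its other mice. At ZT12 against ZT0, 3 of 48 genes fell, at 8.15% of all tested genes, and none rose, at 7.71%, with 1 of the genes having an unadjusted p under 0.05 in that direction and 1 called higher by DESeq2. These were Cycs at a log2 fold change of -0.40 ± 0.12 (edgeR adjusted p = 0.025), Uqcrb at -0.35 ± 0.10 (edgeR adjusted p = 0.0158) and Atp5h at -0.18 ± 0.06 (edgeR adjusted p = 0.0403). Every ZT12 mouse lay below every ZT0 mouse in 5 genes, at 8.11% of all tested genes, and the median log2 fold change over the 48 was -0.08. In an edgeR fit of these 8 libraries alone none of the 48 passed and 9 had an unadjusted p under 0.05, with 7.99% of all tested genes called, while DESeq2 on all libraries called 5 beside 16.7% of all tested genes. Leaving out mouse 1 of ZT0 gave 0 genes beside 11.7% of all tested genes, and leaving out mouse 4 of ZT0 gave 10 beside 17.3%, where all libraries gave 15.9% in either direction. These 2 times were also on different lanes.

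The middle of the dark phase, ZT18, was compared with the middle of the light phase, ZT6. Here 5 of 48 genes rose, at 8.18% of all tested genes, and none fell, at 8.68%, with 1 at an unadjusted p under 0.05 in that direction and none by DESeq2. Besides Atp5l, these were Cox7c at a log2 fold change of 0.48 ± 0.12, Atp5g2 at 0.44 ± 0.15, Atp5e at 0.37 ± 0.11, and Atp5j, a coupling factor of the stalk, at 0.22 ± 0.07 (edgeR adjusted p = 0.0376), although 12.7% of its exonic bases overlap Gabpa on the other strand. With the copies added, Cox7c had a log2 fold change of 0.04 (edgeR adjusted p = 0.836), Atp5g2 of 0.25 (edgeR adjusted p = 0.168) and Atp5l of 0.06 (edgeR adjusted p = 0.668), and Atp5e and Atp5j were the 2 of the 48 genes that passed. Leaving out mouse 2 of ZT6 or mouse 1 of ZT18 also gave 2, beside 13.0% and 11.6% of all tested genes, where all libraries gave 16.9% in either direction. In 13 of 48 genes every ZT18 mouse lay above every ZT6 mouse, at 11.5% of all tested genes, and 41 of 48 log2 fold changes were above 0 with a median of 0.12.

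Isoform pairs of complex IV differ by tissue, and 3 isoforms known from heart and skeletal muscle, Cox6a2, Cox7a1 and Cox8b, were followed against the muscle markers. Cox6a2 tracked them closely. At ZT3 it had 0.06, 0.06 and 0.18 CPM in 3 mice and 27.6 CPM in mouse 2, whose muscle sum was 8144 CPM. Across all 32 mice, after subtracting the mean log2 level of each time point, Pearson's r was 0.99 and Spearman's rho 0.97. Both had a two-sided permutation p of 1e-05, which is the lowest value 100000 permutations allow, and 3e-05 for r after BH adjustment over 3 relations. Dropping mouse 2 of ZT3 and mouse 2 of ZT6, whose log2 muscle sums, taken as such differences, were farthest from the median difference, gave r = 0.99. The values of r in lane 2, lane 3 and lane 4 alone were 0.985, 0.991 and 0.997, with p of 0.000723, 0.000289 and 0.00174 by exact permutation. Cox7a1 had r = -0.22 and rho = -0.07 (permutation p = 0.265 and 0.715, BH-adjusted p for r = 0.337), and Cox8b r = -0.19 and rho = -0.06 (permutation p = 0.337 and 0.751, BH-adjusted p for r = 0.337). Without the 2 farthest mice r was -0.13 and -0.21. Within lanes 2, 3 and 4, r was -0.36, 0.01 and -0.18 for Cox7a1 (exact permutation p = 0.254, 0.966 and 0.708) and -0.22, -0.35 and 0.04 for Cox8b (exact permutation p = 0.52, 0.332 and 0.91). Cox6a2 was at 0 in 6 of the 32 mice, while Cox7a1 and Cox8b were never below 210.3 and 543.8 CPM in any mouse.

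**Figure D5:**
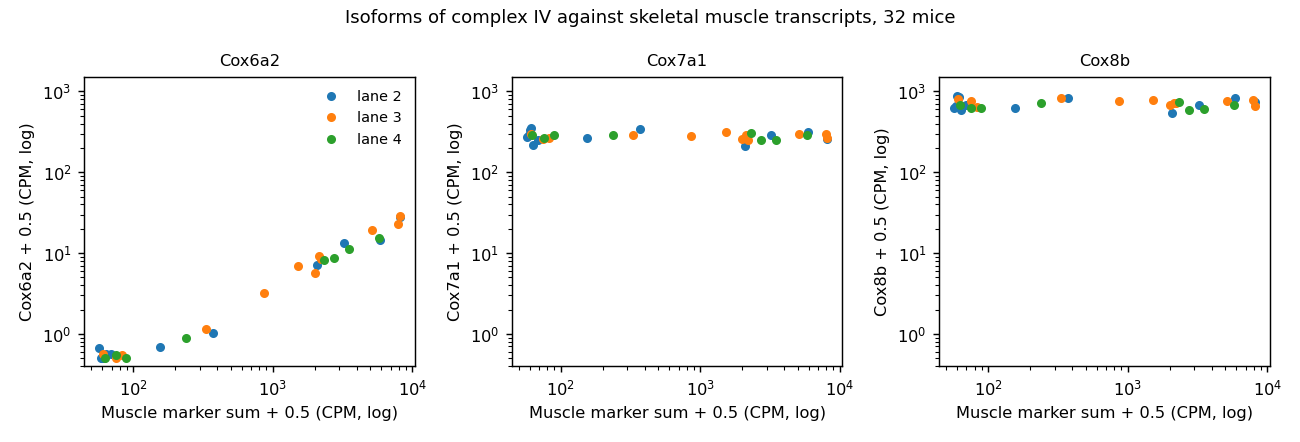
CPM of Cox6a2, Cox7a1 and Cox8b against the summed CPM of 13 skeletal muscle markers in 32 mice, both on log axes after adding 0.5, coloured by sequencing lane. Cox6a2 rises with the muscle sum, and Cox7a1 and Cox8b stay level over the same range.

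As shares of length-scaled levels, Cox7a1 made up 55.8% to 66.7% of Cox7a1 and Cox7a2 together, with a median of 60.8% over the mice. Cox8b made up 59.2% to 69.6% of Cox8a and Cox8b, with a median of 63.6%. Cox4i2, the oxygen-responsive isoform of subunit 4, made up 0.249% to 0.599% of the Cox4 pair, and Cox6a2 at most 4.34% of the Cox6a pair. These shares were compared between ZT3 and ZT0, ZT12 and ZT0, and ZT18 and ZT6, in 12 exact two-sided permutation tests. With 4 against 4 mice such a p cannot go below 0.0286, and 1 comparison alone at that value would have a BH-adjusted p of 0.343, so that no single share could pass here. The lowest p was that of Cox7a1 at ZT3, 59.2% against 61.8% at ZT0 (exact permutation p = 0.0571, adjusted p = 0.686). Cox6b2, the testis isoform of subunit 6b, was listed at 4.85 CPM on average with an amplitude of 0.23 ± 0.08 that did not pass (edgeR adjusted p = 0.054), against 892.2 CPM for Cox6b1.

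Assembly factors of the same complexes and their known regulators were counted as lists. At ZT3 against ZT0, with the 6.6% of all genes that fell as background, 2 of 4 complex II factors, 1 of 6 complex III factors, 5 of 22 complex IV factors and none of 4 complex V factors fell, and none rose. Log2 fold changes were below 0 for 4 of 4, 6 of 6, 21 of 22 and 4 of 4 factors of complexes II, III, IV and V. The fallen factors were Sdhaf2 and Sdhaf3, which help to mature the flavin and the iron-sulphur subunit, Uqcc2 of complex III, and Higd1a, Cmc2, Coa3, Coa6 and Cox20 of complex IV. Coa6, which works in copper delivery, fell by 0.51 ± 0.12 on the log2 scale (edgeR adjusted p = 0.00545), and Uqcc2, needed for cytochrome b, by 0.41 ± 0.09 (edgeR adjusted p = 0.00253). Of 10 regulators, Gabpb1, a partner of the ETS factor GABP, fell with a log2 fold change of -0.33 ± 0.10, and Ppara, a nuclear receptor for fatty acids, rose with a log2 fold change of 1.30 ± 0.35.

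A 24 h component, at 36.1% of all tested genes, passed in 3 of 4 complex II factors, 2 of 6 complex III factors, 3 of 22 complex IV factors, none of 4 complex V factors and 4 of 10 regulators. Sdhaf1, Sdhaf4 and Sdhaf3 peaked at ZT13.8, ZT11.1 and ZT18.8. Uqcc1 and Uqcc2 peaked at ZT18.5 and ZT19.9, and Coa6, Cox15 and Higd2a at ZT19, ZT20.4 and ZT17.8. Among the regulators, Nrf1, an activator of many of these genes, had an amplitude of 0.23 ± 0.03 with a peak at ZT16.45 (edgeR adjusted p = 1.8e-05). Esrra, the estrogen-related receptor alpha that acts with PGC-1 coactivators, peaked at ZT10.5 with an amplitude of 0.18 ± 0.03 (edgeR adjusted p = 0.000575). Yy1 peaked at ZT17.7 with an amplitude of 0.12 ± 0.03. With lane as a term, none of the 4 complex II factors passed, nor did Uqcc2, Cox15, Esrra and Yy1, whereas Uqcc1, Coa6, Higd2a, Nrf1 and Ppara did. That fit also called Gabpb1 and Ppargc1a, which makes 1 of 6 complex III factors, 2 of 22 complex IV factors and 4 of 10 regulators, at 17.2% of all tested genes. Of the 6 mitochondrially encoded subunits listed, 4 passed the fit without lane. The 3 with the lowest p, mt-Atp6, mt-Co3 and mt-Co2, had amplitudes of 0.50 ± 0.09, 0.40 ± 0.08 and 0.40 ± 0.08 with peaks near ZT17, but were listed at only 54.0, 51.8 and 65.1 CPM. The fourth, mt-Cytb, was at 53761 CPM and peaked in the light, at ZT6.8, with an amplitude of 0.12 ± 0.03 (edgeR adjusted p = 0.0282). The most abundant, mt-Co1 at 88098 CPM, had a fitted peak at ZT7.7 and did not pass (edgeR adjusted p = 0.0753). With lane as a term none of the 6 passed the edgeR test. At ZT3 against ZT0 none of the 6 was called.

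Promoter sequences of RefSeq (GRCm38.p6, 250 bases before to 50 bases after a start) were matched for 36 of the 48 genes. They were searched on both strands for the NRF1 motif, shown by its letters in the windows below, CCGGAAG of ETS factors such as GABP, and AAGATGGCG of YY1, the 3 sets of sites known from genes of oxidative phosphorylation. The NRF1 letters were in 10 of 36 promoters, 27.8%, against 10.9% of the promoters of tested genes and 5.19% of all promoters. The ETS letters were in 12 of 36, 33.3%, against 19.1% and 9.93%, and the YY1 letters in 2 of 36, 5.56%, against 3.33% and 1.64%. Among the 12 matched genes that fell at ZT3, 3 held the NRF1 letters and 3 the ETS letters, and among the other 24, 7 and 9 did. The windows below are those of genes called at ZT3 or with a 24 h component that hold such letters before the start, with the letters in capitals, 5′ to 3′ on the strand of the gene. They are the stretches chr2:10080433-10080512, chr2:174464161-174464240, chr11:115419920-115419999, chr5:108434405-108434484, chr9:44920912-44920991 and chr10:80406845-80406924, all on the minus strand, in the order shown.
Atp5c1, NRF1 letters: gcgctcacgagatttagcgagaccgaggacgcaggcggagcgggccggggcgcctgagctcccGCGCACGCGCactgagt
Atp5e, ETS letters: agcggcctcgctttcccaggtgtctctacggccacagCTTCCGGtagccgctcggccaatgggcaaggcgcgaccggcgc
Atp5h, ETS letters: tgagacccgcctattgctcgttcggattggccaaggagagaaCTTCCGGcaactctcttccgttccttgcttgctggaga
Atp5k, NRF1 letters: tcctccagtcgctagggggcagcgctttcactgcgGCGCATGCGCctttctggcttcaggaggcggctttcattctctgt
Atp5l, ETS letters: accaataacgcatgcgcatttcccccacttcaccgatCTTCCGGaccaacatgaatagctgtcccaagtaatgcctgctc
Uqcr11, ETS letters: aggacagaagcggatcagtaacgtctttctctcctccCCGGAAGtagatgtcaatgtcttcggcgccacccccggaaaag

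The letters started 17 bases before the start in Atp5c1, 102 in Atp5e, 38 in Atp5h, 50 in Atp5k, 212 in Atp5l and 66 in Uqcr11. Of these genes, Atp5c1, Atp5e, Atp5l and Uqcr11 had a 24 h component, and Atp5e, Atp5h and Atp5k fell at ZT3. A match of letters is a description of the sequence and not a bound site.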

How the data were processed

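Total RNA of interscapular brown adipose tissue from 32 mice was sequenced as stranded, paired 100-base libraries. The authors deposited raw gene counts, made with GSNAP on mm10 and HTSeq (version 0.6.1), per the submitters' processing notes; the strand setting of the counting is not given in the sources used here. Groups followed the Zeitgeber time in the labels. The 4 samples of a time point were separate mice, and no same-time pair of libraries agreed within sampling noise. The 48 genes, the gene lists and the tests were chosen with earlier results of these data known.

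Genes were filtered with filterByExpr (15505 genes, 99.9% of counts kept), scaled by TMM and tested with edgeR's (version 4.0.16) quasi-likelihood test: a 24 h cosine, any difference between 8 times, contrasts and differences within a lane, with BH adjustment over all tested genes. JTK cycle was run on CPM at periods of 21 and 24 h, as an own implementation with an exact null. Genes named with values were the isoform families, the 3 largest amplitudes and the highest length-scaled level of each complex, the genes that differed within a lane, the most changed genes of each contrast, and at most 3 genes of each list; other genes named for the step from ZT0 to ZT3, with 24 h components or with copies were chosen after their values were seen. Lengths were those of the lowest-numbered protein-coding GENCODE vM21 transcript. Copies were found by exact 100-base matches between transcripts. Alternatives were other scalings and filters, DESeq2 (version 1.42.0), a lane term, a replicate block, fits of fewer libraries, and each library left out; the test of ZT3 against ZT0, the addition of copies and the relation without 2 libraries were chosen after seeing the data. The scripts were tested on simulated data. Totals were 16300770 to 18254659 counts per library, so that genes listed at a few CPM rest on few reads.

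The replicate numbers mark separate mice, and same-numbered libraries did not deviate together (median correlation -0.12, range -0.73 to 0.77, with 4 of 32 libraries closest to their own number).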

Additional observations from a re-analysis of the deposited data

Results flagged for a closer look

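In 5 of 120 groups of 4 mice, over the sums of the complexes and the 10 genes whose values were followed by mouse, 1 mouse lay far from the other 3 by Dixon's test, where chance would give about 6. Mouse 1 at ZT15 had a sum over all 48 genes of 24006 CPM, while the other 3 ranged from 29293 to 30215 CPM, and a sum over complex III with cytochrome c of 4512 CPM against 5733 to 5943 CPM. That library also had the second highest muscle marker sum, 8106 CPM, and 26.7% of its counts on mitochondrially encoded genes. Cox6a2 stood at 27.6 CPM in mouse 2 of ZT3 against 0.06 to 0.18 CPM in the others, and at 6.68 CPM in mouse 2 of ZT6 against 0 to 0.18 CPM, and these were the mice with the highest muscle marker sums of their time points. Atp5e was at 275.4 CPM in mouse 2 of ZT21 against 200.5 to 212.4 CPM.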

How the results depend on the processing

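Counts of called genes among the 48 moved with single mice and with the fit. With the lane as a term, the 24 h component was called in 2 genes, beside 17.2% of all tested genes. Shares in parentheses are those of all tested genes in the same fit. Without a filter on low counts, 6 genes differed between the 8 times (16%), 3 at ZT18 against ZT6 (6.09%), 7 at ZT3 against ZT0 (4.56%) and 5 within a lane (7.25%). With DESeq2, 20 genes differed between the 8 times (45.2%), 5 at ZT12 against ZT0 (16.7%) and 21 within a lane (22%). Library size alone gave 5 genes at ZT3 against ZT0 (12.2%) and 6 within a lane (17.1%). Fits of fewer libraries gave 0 at ZT12 against ZT0 (7.99%), 10 at ZT3 against ZT0 (9.45%) and 9 within a lane (12.6%). Adding the counts of copies gave 2 genes at ZT18 against ZT6 (16.8%), and BH adjustment of JTK gave 7 (27.5%). The cause of these shifts was not tested.

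Over the 32 fits that each left out 1 mouse, with the range of the all-gene share in parentheses, the number of genes with a 24 h component ran from 7 to 15 (32.8% to 38.6%), differing over the 8 times from 5 to 21 (35.9% to 43%), at ZT12 against ZT0 from 0 to 10 (10.8% to 17.3%), at ZT18 against ZT6 from 2 to 7 (11.2% to 18.1%), at ZT3 against ZT0 from 3 to 31 (7.49% to 21.2%), within a lane from 2 to 24 (13% to 25.2%) and by JTK from 7 to 17 (34.7% to 39.4%). Beyond the mice named above for the step to ZT3, shifts of over 1.5 times came for the 8 times from ZT0 mice 1, 2 and 4 (6, 5 and 21), ZT3 mouse 3 (7), ZT15 mouse 1 (17) and ZT18 mouse 1 (7). For ZT12 against ZT0 they came from ZT0 mice 1 and 4 (0 and 10), ZT9 mouse 3 (6), ZT12 mouse 3 (1) and ZT15 mouse 1 (6). For ZT18 against ZT6 they came from ZT6 mice 1 and 2 (3 and 2) and ZT18 mice 1, 2 and 3 (2, 3 and 3). Within a lane they came from ZT0 mice 1 to 4 (2, 4, 8 and 24), ZT3 mice 3 and 4 (6 and 8) and ZT15 mouse 1 (23), and by JTK from each of ZT18 mice 1, 2 and 3 (7). Of the 9 genes with a 24 h component, Atp5c1, Cox7a2l and Uqcr11 lost the call in some of these fits.

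With the replicate number as a block the counts were 8 with a 24 h component (34.7%), 11 over the 8 times (38.4%), 2 at ZT12 against ZT0 (15.4%), 4 at ZT18 against ZT6 (16.4%) and 20 at ZT3 against ZT0 (13.1%); the numbers did not pair the mice. Without the 3 muscle-rich libraries the 24 h component was called in 12 genes (34.9%) and the step to ZT3 in 16 (10.8%).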

Other observations

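Atp5g1, which was listed at a mean of 3.77 CPM, had its highest values in the 3 libraries richest in skeletal muscle transcripts, at 11.6 CPM in mouse 2 of ZT3, 8.94 CPM in mouse 1 of ZT15 and 8.78 CPM in mouse 2 of ZT12, and at most 5.95 CPM in the other libraries. Atp5s, which encodes a factor associated with ATP synthase, was 1 of the 5 genes with a log2 fold change above 0 at ZT3 against ZT0, at 0.26 ± 0.11, and did not pass (edgeR adjusted p = 0.104). Without mouse 4 of ZT0 it passed, at a log2 fold change of 0.41 (edgeR adjusted p = 0.00498). Lowest of all libraries after mouse 1 of ZT15 in the sum over the 48 genes was mouse 3 of ZT9, at 24851 CPM, with 28.2% of its counts on mitochondrially encoded genes.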
